A study of Mus musculus domesticus with 6 samples.

Results

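The genes described here encode the subunits of oxidative phosphorylation, the machinery with which mitochondria make ATP. They were picked by name: the mitochondrially encoded genes with symbols beginning mt-Nd, mt-Co, mt-Cytb or mt-Atp, and the nuclear protein-coding genes with symbols beginning Nduf (a, b, c, s or v and a number), Uqcr, Sdha to Sdhd, Cox4 to Cox8 or Atp5. Assembly factors and pseudogenes were left out. Ndufb1-ps, annotated as a noncoding RNA, and Usmg5 were counted through their RefSeq names, Ndufb1 and Atp5md. A further entry of Atp5o, at 0 in every library, was also counted. This gave 99 of the 55359 entries in the deposited tables, 13 mitochondrial and 86 nuclear. Complex I had 7 mitochondrial and 36 nuclear members, complex II had 4 nuclear members, complex III had 1 and 8, complex IV had 3 and 20, and complex V had 2 and 18. Ndufa4 and Ndufa4l2 were counted with complex IV, where their protein is found.

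The cells were BFU-E (burst-forming units, the first progenitors committed to making red cells), sorted from mouse fetal liver at stage E14.5 as GFP+ Lin- Kit+ cells with low CD24 and CD71. Every embryo carried the floxed Exosc3 gene on both alleles (Exosc3 fl/fl, strain label "Exosc3-floxed and Vav1-Cre"), so the controls carried it too. The protein of Exosc3 is part of the RNA exosome, which degrades RNA from the 3′ end. The groups were 3 Cre- libraries and 3 Cre+ libraries. Vav1-Cre drives recombination in blood cells generally, not in erythroid cells alone. Each of 3 litters gave 2 of the samples. The labels do not say which samples shared a litter, or how many embryos made up a sample, so p-values measure only the spread between these samples.

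Electrons enter the respiratory chain at complex I (from NADH) or complex II (from succinate), pass through complex III and cytochrome c, and reach oxygen at complex IV. Complexes I, III and IV pump protons across the inner membrane, and complex V, the ATP synthase, uses their return to make ATP. The mitochondrial genome encodes membrane core subunits of complexes I, III, IV and V, while every other subunit, and all of complex II, is read from nuclear genes and imported. Complexes built from both genomes therefore need transcripts of both, and the comparison of mitochondrial with nuclear genes asks whether these moved apart between Cre- and Cre+ BFU-E. Erythroid progenitors use mitochondria for ATP and also for heme synthesis, which takes place partly inside them.

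The mouse nuclear genome holds copies of mitochondrial genes, and 7 of them, all on chromosome 1 and annotated as unprocessed pseudogenes, bear on how their mitochondrial genes were counted, for 5 genes by much and for mt-Co1 and mt-Nd4 by little. Sequences below are GENCODE M21 transcripts, whose lengths equal those in the deposited tables for each of these genes. Positions count from 1 at the first base of the mitochondrial gene. The mt-Nd3 gene (a membrane subunit of complex I) and its copy Gm28438 were aligned over 345 bases and differed at 1 of them, T3C, shown in capitals in the first 80 bases of each.
mt-Nd3: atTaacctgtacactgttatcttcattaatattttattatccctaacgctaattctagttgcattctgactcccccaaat
Gm28438: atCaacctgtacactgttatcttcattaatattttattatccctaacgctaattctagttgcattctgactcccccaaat
Over the aligned 678 bases, mt-Atp6 (the proton channel subunit of complex V) and Gm10925 had no difference. The only letters that set them apart are the last 3 bases of the mitochondrial gene, in capitals, which the model of the copy leaves off.
mt-Atp6 end: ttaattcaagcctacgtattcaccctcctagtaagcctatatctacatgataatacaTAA
Gm10925 end: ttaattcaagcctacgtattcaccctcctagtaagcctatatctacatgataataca
The copy of mt-Co1, Gm29216, covers only the last 492 bases of the gene and carries its 6 differences (T1056A, C1057T, A1059G, A1060G, C1062A and A1066T) at its own start, in capitals.
mt-Co1, same stretch: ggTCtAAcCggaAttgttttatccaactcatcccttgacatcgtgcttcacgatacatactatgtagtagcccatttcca
Gm29216 start: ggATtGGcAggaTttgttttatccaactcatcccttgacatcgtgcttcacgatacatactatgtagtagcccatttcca
The genes mt-Co2 and mt-Co3 (core subunits of complex IV) matched Gm28661 over 681 bases and Gm28437 over 783 bases with no difference, mt-Nd4l matched Gm10222 over 294 bases, and the first 876 bases of mt-Nd4 matched Gm28439.

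The deposited counts divide the reads of such pairs in ways that differ from gene to gene and from library to library. Gm10925 held 86.5% to 96.1% of the reads of mt-Atp6 and Gm10925 together, and its mean level was 14003 TPM (a level per transcript length) against 816 TPM for mt-Atp6. Gm28661 held 92.5% to 96.7% of the reads shared with mt-Co2, Gm28437 held 80.9% to 89.7% of those shared with mt-Co3, and Gm10222 held 97.0% to 99.7% of those shared with mt-Nd4l. For mt-Co1 and mt-Nd4, which extend well past their chromosome 1 copies, the copy held at most 0.133% and 0.0901%. A copy of all 1545 bases of mt-Co1 on chromosome 2, Gm13340, differs from it at 37 bases and had at most 18.9 reads in a library, and Gm13341, the chromosome 2 copy of mt-Co2, had 0 reads. The share on Gm28438 was 69.5%, 1.83% and 97.5% in the Cre- replicates and 97.3%, 17.4% and 98.6% in the Cre+ replicates. The level of mt-Nd3 alone followed this division: 14.2, 40.99 and 0.990 CPM (read counts per library, made comparable by scaling) against 1.11, 25.5 and 0.746. With the copy added it was 46.4, 41.8 and 39.6 CPM in Cre- and 41.3, 30.9 and 55.0 CPM in Cre+ libraries. The deposited values of mt-Nd3, mt-Nd4l, mt-Co2, mt-Co3 and mt-Atp6 are therefore uncertain, and each is also given below with its copy added, a setting chosen after the data were seen.

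**Figure D1:**
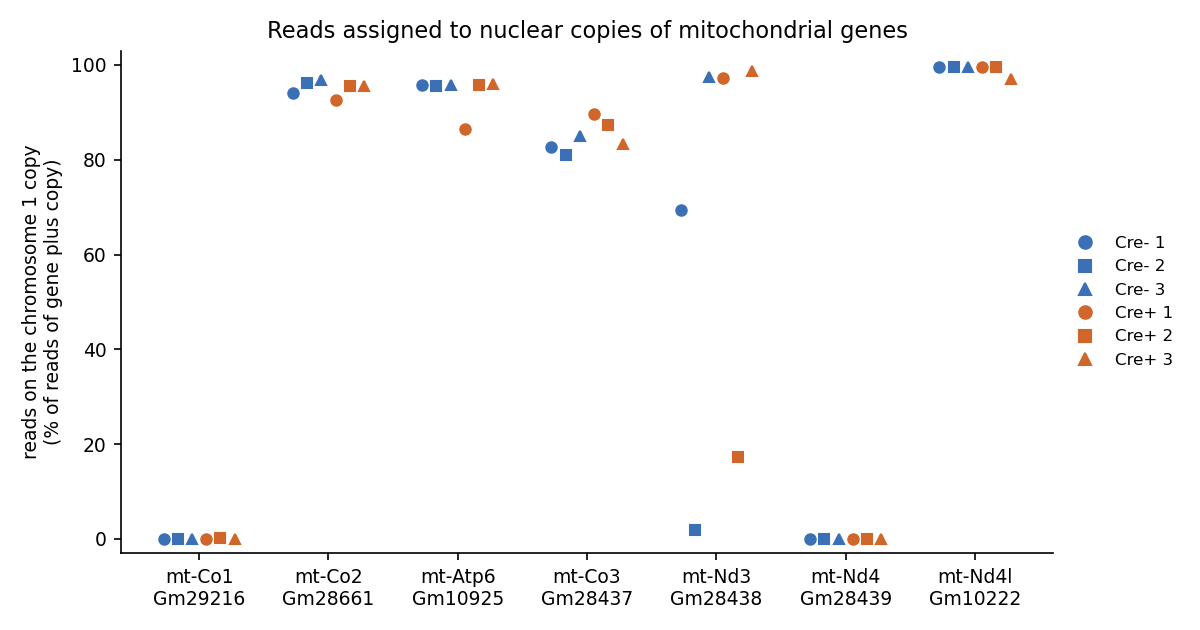
Share of reads on the chromosome 1 copy, in percent of the reads of the mitochondrial gene plus its copy, for 7 genes (points: single libraries). For mt-Co1 and mt-Nd4 the share stays at or under 0.133%, for mt-Nd3 it runs from 1.83% to 98.6%, and for the other 4 genes it lies between 80.9% and 99.7%.

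Exosc3, the targeted gene, was measured at 51.9, 44.3 and 48.0 CPM in the Cre- replicates and at 26.8, 22.1 and 30.2 CPM in the Cre+ replicates. The groups did not overlap, but the change (log2 fold change -0.87, SE 0.22) had an edgeR adjusted p of 0.259 and a DESeq2 adjusted p of 0.00325. The libraries held 89629949 to 124931215 expected counts. Of the erythroid and BFU-E markers, 18 of 22 tested had a positive fold change, and their summed level was 2618 to 3227 CPM in Cre- and 3254 to 4030 CPM in Cre+ libraries. Neutrophil and monocyte markers had negative fold changes for 10 of 11 tested, at 595.5 to 1575 CPM against 244 to 553 CPM, with Ly6c2, S100a8 and S100a9 at 0 in every library. Lymphoid markers were negative for 11 of 12 tested (236 to 401 CPM against 128 to 195 CPM), with Cd3e and Dntt at 0. Hepatocyte markers summed to 25.6 to 41.3 CPM against 8.88 to 29.4 CPM, with 10 of 16, Afp among them, at 0, and macrophage markers to at most 3.73 CPM, with 7 of 10, Adgre1 among them, at 0. The part of these cells in the results below was not tested, and in bulk RNA fewer cells of a type and less RNA per cell cannot be told apart.

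No oxidative phosphorylation gene passed the edgeR test between Cre+ and Cre- BFU-E. Of the 99 members, 92 had enough counts to be tested, and edgeR called 0 of them (adjusted p under 0.05), against 16 of 13117 genes, or 0.122%, over the whole table. At an unadjusted p under 0.05 there were 7 higher and 1 lower member, where 4.05% of all tested genes were higher and 4.19% lower (8.23% in either direction). The 3 Cre+ values all lay above the 3 Cre- values for 9 members and below them for 2, beside 7.53% and 7.66% of all tested genes. Limma-voom also called 0 members. DESeq2, which called 1.79% of tested genes higher and 1.66% lower (3.45% in all), called 2 higher, mt-Nd6 and Ndufs6. Of the 16 genes edgeR called over the whole table, all were higher in Cre+.

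**Figure D2:**
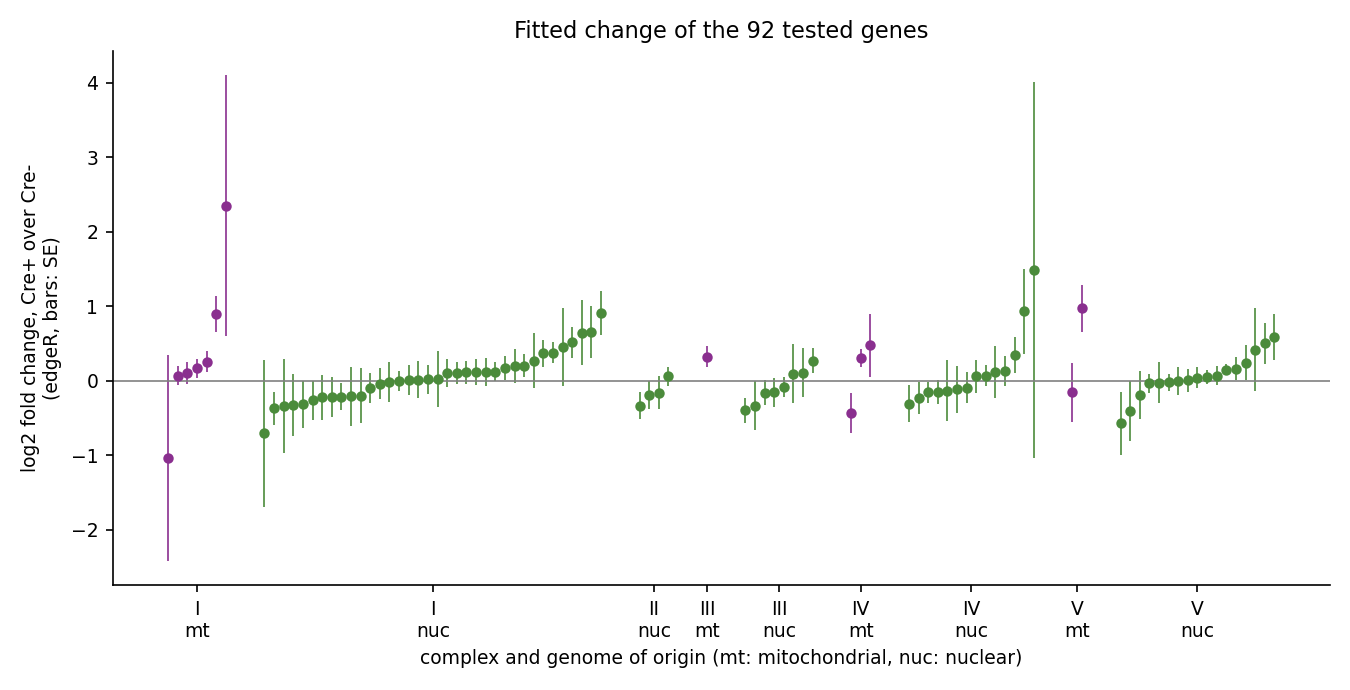
Fitted log2 fold change of Cre+ over Cre- for the 92 tested members (points) with SE (bars), by complex and by genome of origin. Points of the mitochondrial members have a median of 0.26 and those of the nuclear members a median of 0.02; the 3 points farthest from 0 are mt-Nd4l, Cox4i2 and mt-Nd3.

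The mitochondrial members together summed to 9620, 7733 and 8286 CPM in the Cre- replicates and to 8620, 9943 and 11811 CPM in the Cre+ replicates. The groups overlapped: the highest library was Cre+ replicate 3 and the lowest Cre- replicate 2, with Cre- replicate 1 above Cre+ replicate 1. The difference of mean log2 sums was 0.24, beside SDs of 0.16 in Cre- and 0.23 in Cre+ libraries, and it was 0.12 without Cre+ replicate 3. Of the 13 fitted fold changes, 10 were positive, where 49.2% of all tested genes were, with a median of 0.26 beside -0.01 over all tested genes. Since 12 of these genes are read from the same heavy-strand transcript, their fold changes are not independent of each other. Without Cre+ replicate 3 the median was 0.06 and 8 of 13 were positive. Cre+ replicate 3 had the highest level of 7 of the 13 genes, and of 10 when the copies were added. Cre- replicate 2 had the lowest level of 6, or 7 with the copies.

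The nuclear members summed to 7059, 7839 and 6603 CPM in the Cre- replicates and to 7773, 7204 and 7035 CPM in the Cre+ replicates, with all 3 Cre+ values inside the range of the Cre- values. Their difference of mean log2 sums was 0.04 (SD 0.12 and 0.08), and it was -0.02 without Cre- replicate 3 and -0.01 without Cre+ replicate 1. Of the 79 tested nuclear members 42 had a positive and 37 a negative fold change, with a median of 0.02, which became -0.01 when library totals replaced the TMM scaling. The ratio of mitochondrial to nuclear sums was 1.36, 0.986 and 1.25 in Cre- and 1.11, 1.38 and 1.68 in Cre+ libraries. These overlapped, with a log2 difference of 0.20 that was smaller than the SD within either group (0.24 and 0.30). It was 0.07 without Cre- replicate 2, 0.06 without Cre+ replicate 3 and 0.35 without Cre+ replicate 1. With the 7 copies added to the mitochondrial side the ratio was 2.11, 1.496 and 1.94 against 1.67, 2.18 and 2.66, a log2 difference of 0.22. By TPM, which corrects for length, the 13 mitochondrial members made up 14147 ± 1686 TPM and the 86 nuclear members 18968 ± 1143 TPM (SD, n = 6). With the 7 copies added the mitochondrial side was 34070 ± 5914 TPM, so by TPM the order of the sides changed with the copies. By CPM the mitochondrial mean was the higher without the copies too. It was 8546 against 7167 CPM in Cre- and 10125 against 7337 CPM in Cre+ libraries, so the order also depended on the measure. Both mitochondrial TPM values include mt-Atp8, whose TPM is not comparable with that of longer genes. The value with the copies also includes the short Gm10222, at 3839 TPM.

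**Figure D3:**
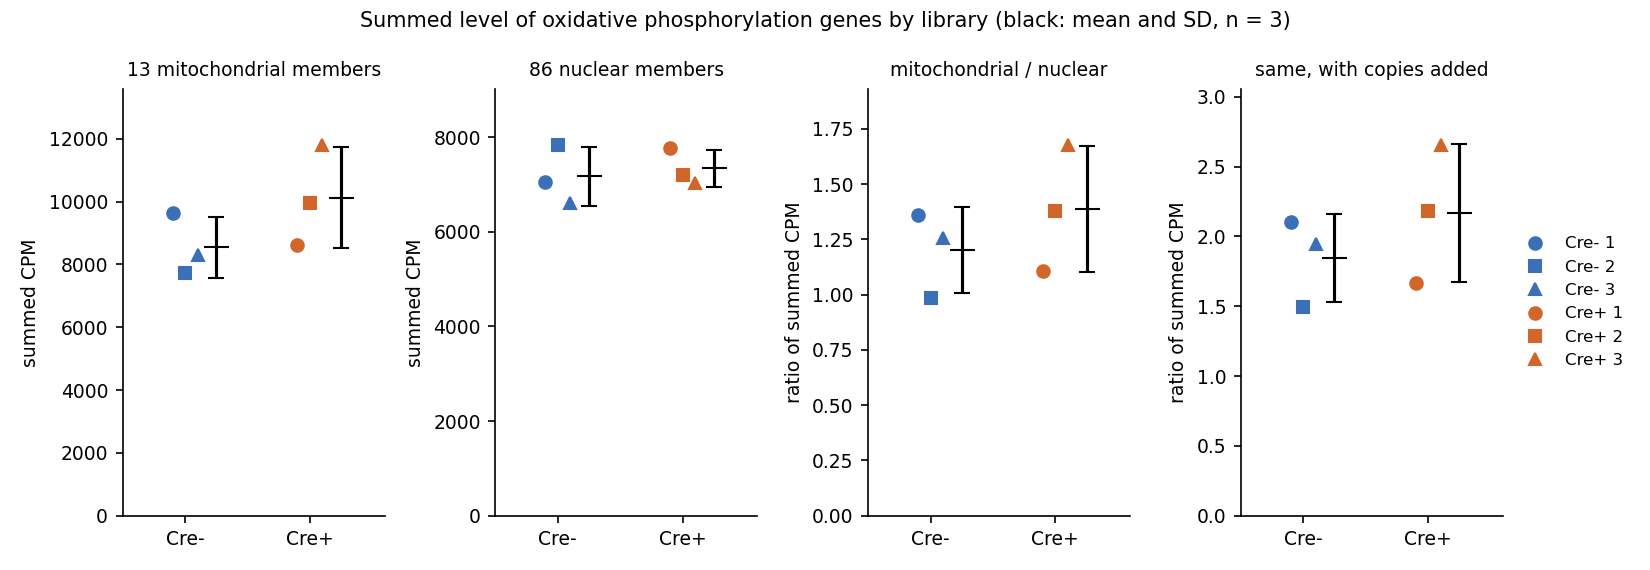
Summed CPM of the 13 mitochondrial and 86 nuclear members and their ratio without and with the chromosome 1 copies, in each library (points) with the group mean and SD (black, n = 3). In every panel the Cre- and Cre+ points overlap, and Cre+ replicate 3 is the highest point in every panel except that of the nuclear members.

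The mitochondrial ribosomal RNAs mt-Rnr1 and mt-Rnr2, transcribed from the same heavy strand, varied alongside the mitochondrial messages from library to library. They took 4.35% to 6.42% of all counts, beside 0.780% to 1.17% for the mitochondrial and 0.671% to 0.791% for the nuclear members. The ratio of rRNA to mitochondrial members was 5.72, 5.58 and 5.69 in Cre- and 5.93, 5.53 and 5.48 in Cre+ libraries. The 22 mitochondrial tRNA genes were listed at 0 in every library, which does not show that these RNAs were absent. Even mt-Atp8, at 204 bases, had an effective length of only 5.82 to 6.19 bases, and tRNA genes are shorter.

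Complex I takes electrons from NADH, and its mitochondrial members form the proton-pumping membrane arm. Mt-Nd6 had the smallest p of all members. It is the only protein gene encoded on the light strand of the mitochondrial genome, while the other 12 are read from the heavy-strand transcript. It was at 30.0, 28.5 and 27.7 CPM in the Cre- replicates and at 36.6, 62.8 and 60.7 CPM in the Cre+ replicates. The Cre- libraries lay close together, and all Cre+ libraries were above them, replicate 1 by the least. The log2 fold change was 0.89 (SE 0.25), with an edgeR adjusted p of 0.279 and a DESeq2 adjusted p of 0.00826. As a share of mt-Nd5, its neighbour on the opposite strand, mt-Nd6 was at 1.93%, 2.22% and 2.21% in Cre- and 2.86%, 4.10% and 3.40% in Cre+ libraries, which did not overlap. The ends of both genes overlap on opposite strands. The library kit keeps the strand, per the labels, but the strand setting of the counting was not found in the labels, so reads in the overlap cannot be told apart.

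Of the other complex I genes of the mitochondrial genome, mt-Nd1 was at 1332, 1066 and 1134 CPM in Cre- and 978, 1280 and 1534 CPM in Cre+ libraries, mt-Nd2 at 1128, 848 and 882 against 876, 978 and 1142, and mt-Nd5 at 1556, 1284 and 1254 against 1277, 1532 and 1785. Each of them had its highest Cre+ value in replicate 3 and groups that overlapped. Their log2 fold changes were 0.10 (SE 0.15), 0.07 (SE 0.13) and 0.17 (SE 0.13), and edgeR adjusted p-values were at least 0.890. Mt-Nd4 was at 834.5, 755 and 761 CPM against 737, 903 and 1169 CPM (log2 fold change 0.26, SE 0.14). For mt-Nd4l, at 0.426, 0.382 and 0.499 CPM against 0.467, 0.656 and 5.54 CPM, the fitted log2 fold change was 2.35 (SE 1.75), and 0.36 without Cre+ replicate 3. With Gm10222 added it was 124.5, 112 and 131 CPM against 114, 185 and 188 CPM, with a log2 fold change of 0.40 (SE 0.19, edgeR adjusted p = 0.630). Mt-Nd3 alone had a log2 fold change of -1.04 (SE 1.38), which was 0.26 without Cre- replicate 2, and with Gm28438 added it was -0.01 (SE 0.24).

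Among the 36 nuclear members of complex I, 21 were higher and 15 lower by the sign of the fitted fold change, whose median was 0.02. None was called by edgeR, and 1 (Ndufs6) was called by DESeq2, which called 3.45% of all tested genes. An unadjusted edgeR p under 0.05 was found for 3, all higher, beside 4.05% higher over all tested genes. The groups separated upward for 5 and downward for 1, beside 7.53% and 7.66% of all tested genes. Ndufs6, an accessory subunit of the matrix arm, was at 11.9, 13.5 and 13.1 CPM in Cre- and 22.0, 23.7 and 26.4 CPM in Cre+ libraries. Each group was tight and every Cre+ library lay far above every Cre- library, a 1.87-fold higher mean. The log2 fold change was 0.91 (SE 0.30), with an edgeR adjusted p of 0.389 and a DESeq2 adjusted p of 0.0417. Ndufs6 overlaps Mrpl36 (a mitochondrial ribosomal protein gene) on the opposite strand. Mrpl36 was at 37.6, 30.3 and 24.7 CPM against 23.8, 35.5 and 34.9 CPM, with a log2 fold change of 0.02 (SE 0.27). The processed pseudogene Ndufs6b shares 7.68% of the 50-base words of Ndufs6 and had 0 reads.

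Ndufs7, which carries the last iron-sulfur cluster before ubiquinone, was at 73.3, 66.1 and 65.9 CPM in Cre- and 96.9, 82.1 and 87.7 CPM in Cre+ libraries. The groups did not overlap (log2 fold change 0.38, SE 0.14, edgeR adjusted p = 0.517). Ndufb4, an accessory subunit of the membrane arm, was at 46.1, 48.4 and 32.8 CPM against 55.8, 64.5 and 61.5 CPM, also without overlap (log2 fold change 0.51, SE 0.20, edgeR adjusted p = 0.534). Ndufb4 shares 18.3% of its 50-base words with the pseudogene Ndufb4c, which had a mean of 182 TPM against 93.3 TPM for Ndufb4, so its count is uncertain. Ndufs3, a core subunit of the matrix arm, was the 1 complex I gene below in every Cre+ library, at 35.1, 34.8 and 34.3 CPM against 27.3, 27.9 and 25.3 CPM (log2 fold change -0.37, SE 0.22, edgeR adjusted p = 0.80). Ndufs3 shares 16.1% of its 50-base words with other genes, and its count was not whole in 1 library. Ndufs4, an accessory subunit of the same arm, was above in every Cre+ library, at 40.5, 47.0 and 56.5 CPM against 61.8, 58.5 and 65.1 CPM (log2 fold change 0.36, SE 0.19). Ndufb6, an accessory subunit of the membrane arm, was low throughout, at 5.91, 11.1 and 10.02 CPM against 16.1, 15.01 and 11.13 CPM, with groups only just apart (log2 fold change 0.64, SE 0.44). Ndufb10, a membrane-arm subunit among the most abundant nuclear members of the complex, had 329 TPM and overlapping groups.

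**Figure D4:**
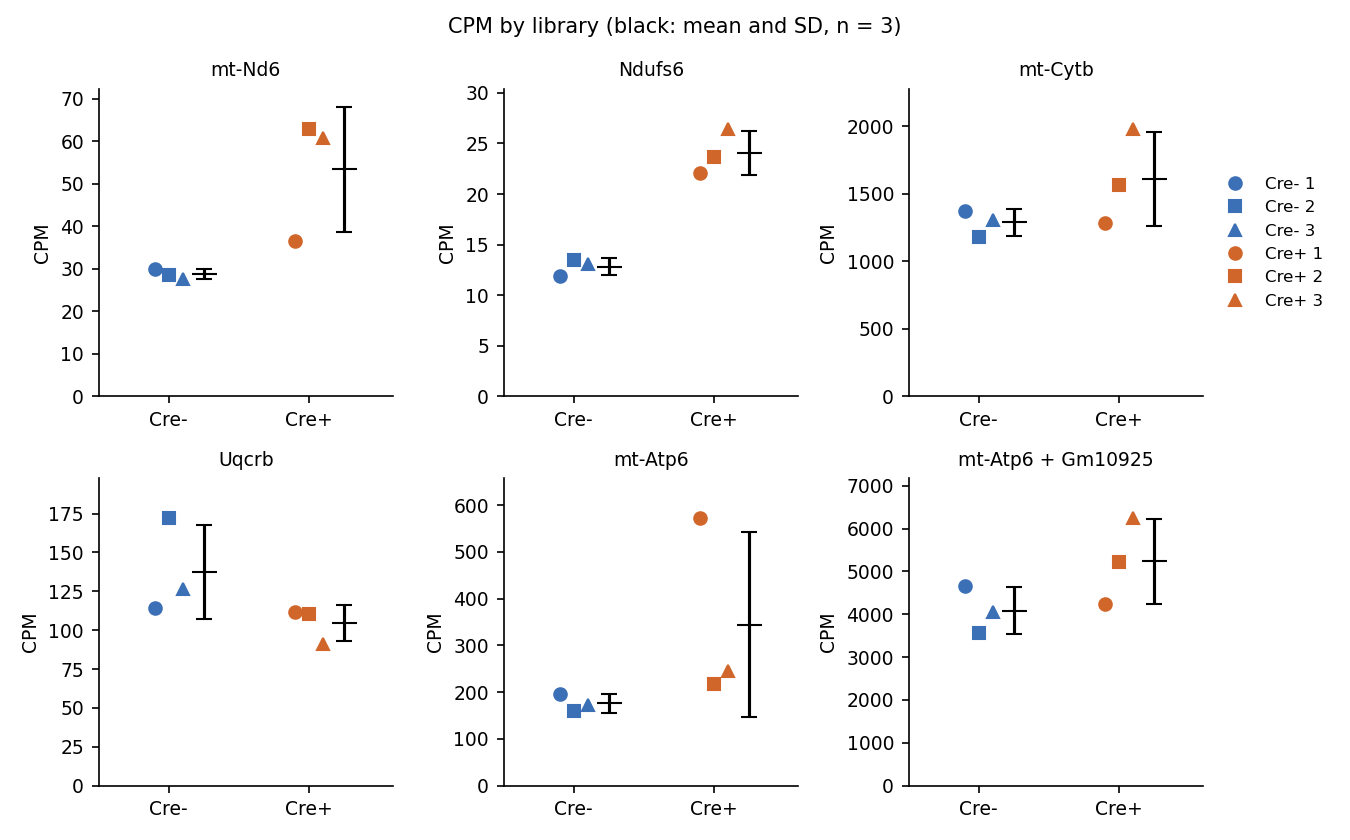
CPM in each library (points) with the group mean and SD (black, n = 3) for mt-Nd6, Ndufs6, mt-Cytb, Uqcrb, mt-Atp6 and mt-Atp6 plus its copy Gm10925. The groups are apart for mt-Nd6, Ndufs6, Uqcrb and mt-Atp6 alone, and overlap for mt-Cytb and for mt-Atp6 with its copy.

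Complex II oxidizes succinate and has no mitochondrial gene. Sdha, its flavoprotein, was the most abundant at 278 TPM and had a log2 fold change of 0.06 (SE 0.13). Sdhd, a membrane anchor, was at 104.5, 98.9 and 71.6 CPM in Cre- and 64.8, 71.1 and 81.6 CPM in Cre+ libraries. Cre- replicate 3 lay within the range of the Cre+ libraries, and the log2 fold change was -0.34 (SE 0.18, edgeR adjusted p = 0.739). Sdhc, the other anchor, had a log2 fold change of -0.19 (SE 0.19), which was 0.32 with effective length offsets, and groups overlapped for all 4 genes.

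Complex III passes electrons to cytochrome c. Its mitochondrial gene, mt-Cytb (cytochrome b), was at 1376, 1182 and 1304 CPM in Cre- and 1283, 1565 and 1978 CPM in Cre+ libraries, with Cre+ replicate 1 inside the Cre- range and Cre+ replicate 3 well above the rest. The log2 fold change was 0.32 (SE 0.14) with an unadjusted p of 0.0424 and an edgeR adjusted p of 0.579, and it was 0.15 without Cre+ replicate 3. Uqcrb, an accessory subunit, was at 115, 172 and 126 CPM in Cre- and 112, 110.5 and 90.9 CPM in Cre+ libraries. The groups did not overlap, by a margin of under 3 CPM between Cre- replicate 1 and Cre+ replicate 1. Its log2 fold change was -0.40 (SE 0.17, edgeR adjusted p = 0.583) and was -0.21 without Cre- replicate 2. Uqcrb is also the most abundant nuclear member of the complex (615 TPM) and shares 25.4% of its 50-base words with other genes, mainly pseudogenes. Uqcrc2, a core subunit, had a log2 fold change of 0.27 (SE 0.17; 0.14 with effective length offsets), so the pair with the smallest p among the 8 nuclear members had opposite signs. Cyc1, the catalytic cytochrome c1 that the symbol rule does not reach, had 94.6, 99.5 and 75.6 CPM against 79.0, 90.9 and 107 CPM. The ratio of mt-Cytb to the nuclear members was 1.94, 1.499 and 1.99 in Cre- and 1.82, 2.61 and 2.81 in Cre+ libraries, which overlapped.

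Complex IV reduces oxygen. Mt-Co1, its catalytic subunit, had the highest deposited level of any mitochondrial member (2762 ± 478 TPM, SD, n = 6). That order does not hold with the copies, since Gm10925 of mt-Atp6 alone had 14003 TPM. Gm10222 had 3839 TPM, but its gene mt-Nd4l has only 297 bases, and by counts the pair was at 112 to 188 CPM. Mt-Co1 was at 3060, 2298 and 2687 CPM in Cre- and 2798, 3316 and 3812 CPM in Cre+ libraries, with Cre- replicate 1 above Cre+ replicate 1. The log2 fold change was 0.30 (SE 0.12, edgeR adjusted p = 0.558). Mt-Co2 with Gm28661 was at 393, 275 and 294 CPM against 336, 356 and 432 CPM (log2 fold change 0.22, SE 0.15), and mt-Co3 with Gm28437 at 317, 265 and 268 CPM against 250.1, 265 and 292 CPM (log2 fold change -0.07, SE 0.11). The 3 core genes thus lay between -0.07 and 0.30 once the copies were added, while the deposited values alone gave 0.47 for mt-Co2 and -0.43 for mt-Co3. Of the 20 nuclear members 14 were tested, with 7 positive and 7 negative fold changes, no unadjusted p under 0.05 and no separated groups. Over all tested genes these last shares were 8.23% and 15.2%. Cox6c, an accessory subunit, was the most abundant at 1186 TPM (log2 fold change -0.16, SE 0.14).

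Several complex IV subunits come in versions from different genes, and in these BFU-E the broadly expressed version had the highest mean TPM of each set. Cox4i1 was at 253 TPM, while Cox4i2, the version of lung and low oxygen, had a mean of 2.04 TPM and was at 0 in 1 library of each group. Cox6a1 was at 232 TPM. Its heart and muscle version Cox6a2 had reads in 1 library only, 553 in Cre- replicate 3. Cox7a1 and Cox8b, versions of heart and muscle, Cox7b2 and Cox8c, versions of testis, and Ndufa4l2, a gene known for induction by low oxygen, were at 0 in all 6 libraries. Cox6b2, known as a testis version, was the exception in being well detected, with 71.5 TPM beside 152 TPM for Cox6b1. It was at 8.26, 15.9 and 4.53 CPM in Cre- and 25.6, 20.6 and 8.39 CPM in Cre+ libraries, a wide spread with overlap (log2 fold change 0.93, SE 0.57, edgeR adjusted p = 0.818). Within complex V, subunit c, which forms the rotor ring, is encoded by 3 genes of similar level, Atp5g1 at 91.6, Atp5g2 at 81.5 and Atp5g3 at 152 TPM, although Atp5g2 shares 38.4% of its 50-base words with other genes.

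**Figure D5:**
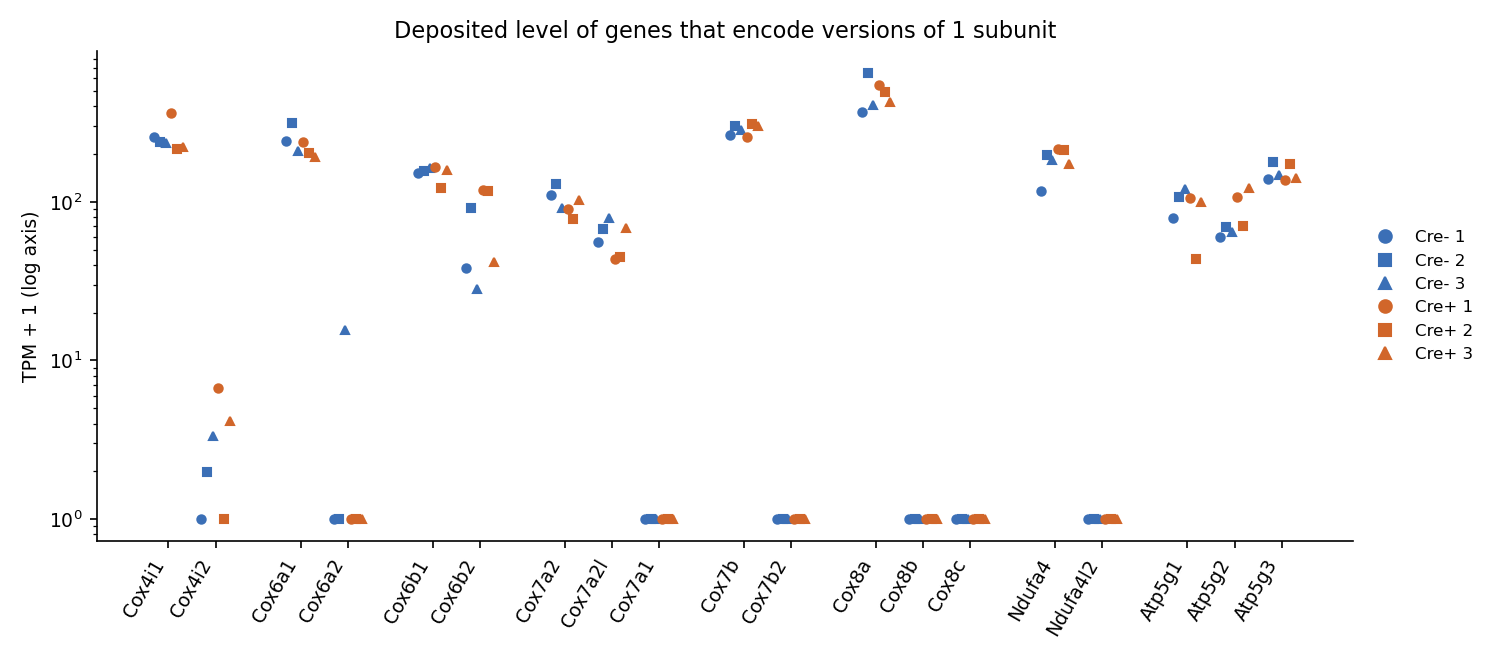
Deposited TPM plus 1 on a log axis in each library (points) for genes that encode versions of the same subunit. Points at the bottom of the axis are listed at 0; Cox7a1, Cox7b2, Cox8b, Cox8c and Ndufa4l2 are there in all 6 libraries, and Cox6b2 lies among the expressed versions.

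Among the nuclear members of complex V, the ATP synthase, Atp5mpl, a small membrane subunit, had 2867 ± 243 TPM (SD, n = 6). Atp5b, the catalytic beta subunit, had 1513 ± 321 TPM, and Atp5h, a stalk subunit, 1147 ± 141 TPM. By counts the order differed. Mean levels in Cre- and Cre+ libraries were 222 and 218 CPM for Atp5mpl and 303 and 312 CPM for Atp5h. They were 851 and 943 CPM for Atp5b, and 885 and 915 CPM for Atp5a1, which had 563 TPM. Atp5b was at 838, 890 and 827 CPM in Cre- and 1012, 905 and 913 CPM in Cre+ libraries. All Cre+ libraries lay above all Cre- libraries by a small margin, a 1.11-fold higher mean (log2 fold change 0.15, SE 0.07, edgeR adjusted p = 0.702). With effective length offsets the log2 fold change was 0.55, not called either. Atp5g2 also separated upward, at 20.1, 24.7 and 22.1 CPM against 39.4, 25.04 and 30.0 CPM (log2 fold change 0.50, SE 0.27). Atp5l, subunit g, had a log2 fold change of 0.59 (SE 0.31) with overlapping groups. The inhibitor of the synthase, Atpif1, was not counted as a member, because its other name, Atp5if1, was not matched here. It is known in erythroid cells for its part in heme synthesis. Atpif1 was at 3822 TPM, above the deposited level of every member but below mt-Atp6 once its copy was added. Gm10222 was at a similar 3839 TPM, though mt-Nd4l with this copy was at only 112 to 188 CPM. Atpif1 did not differ beyond its spread, at 733, 898 and 675 CPM in Cre- and 840, 732 and 703 CPM in Cre+ libraries (log2 fold change -0.02, SE 0.12).

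The mitochondrial side of complex V shows what the copy does to a comparison. Mt-Atp6 alone was at 197, 159 and 172 CPM in Cre- and 572, 217 and 245 CPM in Cre+ libraries. The groups did not overlap, and Cre+ replicate 1 was far above the rest, giving a log2 fold change of 0.97 (SE 0.32) and an edgeR adjusted p of 0.389. In that library Gm10925 held 86.5% of the shared reads, its lowest share. With Gm10925 added, the levels were 4649, 3558 and 4042 CPM against 4235, 5224 and 6240 CPM, which overlapped, and the log2 fold change was 0.36 (SE 0.14, edgeR adjusted p = 0.503). The ratio of mitochondrial to nuclear complex V counts likewise separated without the copy, at 0.0673, 0.0502 and 0.0648 against 0.169, 0.0706 and 0.0813, and overlapped with it, at 1.49, 1.06 and 1.41 against 1.23, 1.61 and 1.99. Mt-Atp8, a small subunit next to mt-Atp6, was at 13.004, 9.61 and 14.53 CPM against 10.6, 11.97 and 10.8 CPM (log2 fold change -0.15, SE 0.40). It shares its last 43 bases with the start of mt-Atp6 on the same transcript, in capitals.
mt-Atp8 end: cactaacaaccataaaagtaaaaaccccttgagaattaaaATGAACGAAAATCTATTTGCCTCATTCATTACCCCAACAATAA
mt-Atp6 start: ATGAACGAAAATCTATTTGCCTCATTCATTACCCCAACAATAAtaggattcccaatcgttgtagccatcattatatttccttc
Its deposited 2205 TPM rests on an effective length of 5.82 to 6.19 bases for a gene of 204 bases and is not comparable with the TPM of longer genes.

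How much a member could be seen to differ depended on its counts. The median coefficient of variation among the Cre- libraries was 30.5% for the 25 members with a mean under 3000 counts, 16.7% for the 39 with 3000 to 10000 counts, and 12.5% for the 28 with more. The median SE of the log2 fold change was 0.41, 0.21 and 0.14 in these classes. Exons of 31 members overlap a gene on the opposite strand.

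Genes that build the complexes were tested from lists, and edgeR called none of them. Over all tested genes edgeR called 0.122%, and 8.23% had an unadjusted p under 0.05. Of 18 complex I assembly factors 12 had a negative fold change (median -0.10). Nubpl, which delivers iron-sulfur clusters to complex I, was low throughout, at 10.9, 2.12 and 3.64 CPM in Cre- and 1.72, 0.339 and 0.390 CPM in Cre+ libraries. The means were 5.54 and 0.815 CPM (log2 fold change -2.76, SE 1.33, edgeR adjusted p = 0.666). Without Cre- replicate 1, the highest library, the log2 fold change was -1.82. The medians were 0.15 for the 10 factors of complexes II and III, -0.01 for the 27 of complex IV and -0.16 for the 6 of complex V. Among the complex IV factors 2 had an unadjusted p under 0.05, both lower: Cox18, which inserts part of mt-Co2 into the membrane (log2 fold change -1.68, SE 0.65, and -0.99 with effective length offsets), and Cox20, which chaperones mt-Co2 (log2 fold change -0.88, SE 0.38). A list of 13 genes outside the symbol rule held cytochrome c, genes of ubiquinone synthesis, the complex III subunit Cyc1 and the complex I subunit Ndufab1. Of these 13, 1 had an unadjusted p under 0.05, Coq5, an enzyme of ubiquinone synthesis (log2 fold change 0.49, SE 0.21, edgeR adjusted p = 0.591). Cycs, cytochrome c, was at 197, 196 and 206 CPM against 139, 133 and 205 CPM, with Cre+ replicate 3 at the Cre- level (log2 fold change -0.33, SE 0.16).

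The genes that make, process and translate mitochondrial RNA gave 0 calls by edgeR too, while DESeq2 called Fastkd5, Lrpprc and Mrpl12 among those named by the rule. That rule took the smallest p of each list in these same libraries, which favours such calls. DESeq2 called 3.45% of all tested genes, and its calls among the other genes of these lists are not given here. An unadjusted edgeR p under 0.05 was found for 8.23% of all tested genes. Of 16 for transcription and replication, 1 had an unadjusted p under 0.05, Polg, the mitochondrial DNA polymerase (log2 fold change -0.46, SE 0.17, edgeR adjusted p = 0.478). Of 24 for RNA processing, stability and decay, 12 had positive and 12 negative fold changes, with 1 at an unadjusted p under 0.05 in each direction. Lrpprc, which stabilizes mitochondrial messages, had means of 343 and 429 CPM (log2 fold change 0.32, SE 0.08, edgeR adjusted p = 0.264, DESeq2 adjusted p = 0.00132). Fastkd5, needed to process mitochondrial messages that no tRNA flanks, had means of 33.3 and 13.6 CPM (log2 fold change -1.30, SE 0.30, edgeR adjusted p = 0.214, DESeq2 adjusted p = 0.000367). Groups did not overlap for either gene, and they differed in opposite directions. Of 78 mitochondrial ribosomal protein genes, 7 had an unadjusted p under 0.05, beside 8.23% of all tested genes. Of these 7, 2 had positive and 5 negative fold changes, and the median over the list was -0.07. Mrpl12, of the large subunit, had means of 371 and 276 CPM with overlapping groups (log2 fold change -0.43, SE 0.15, edgeR adjusted p = 0.439, DESeq2 adjusted p = 0.0267). The 8 tested entries of abundant nuclear noncoding RNAs (7 RNAs, since Rmrp has 2 entries), with Malat1 the leading one, all had positive fold changes. Their summed level was 4447 to 5232 CPM in Cre- and 5579 to 6878 CPM in Cre+ libraries. Of the 8, edgeR called 0, and 3 had an unadjusted p under 0.05, all higher, beside 8.23% of all tested genes. DESeq2 called Malat1 (adjusted p = 0.000133), which was named for its small p in these same libraries. These RNAs and the mitochondrial members were both highest in Cre+ replicate 3, and the part of nuclear RNA in the libraries was not tested.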

How the data were processed

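Total RNA from 6 sorted samples was sequenced (3 Cre- and 3 Cre+). The submitters' processing notes name STAR 2.5.3a, RSEM 1.3.0 and the build GRCm39. Which annotation and strand setting were used is not given in the sources used here. The deposited tables hold expected counts (reads RSEM assigns to a gene, not whole for genes that share reads), TPM and FPKM (both corrected for transcript length), per the file headers, and transcript lengths. TPM was used for levels, and FPKM was not used.

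Symbols came from GENCODE M21 (52081 of 55359 entries matched) with RefSeq synonyms. That release is on GRCm38, so no coordinates are printed. Shared sequence was measured as the percent of 50-base words of a gene found in another gene (Biopython 1.88).

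Expected counts were rounded. Genes passing edgeR's filterByExpr (13117) were tested with edgeR 4.0.16 (glmQLFit, glmQLFTest, TMM) in R 4.3.3, all 6 libraries, no block, with Benjamini-Hochberg adjustment over all genes and a threshold of 0.05. An SE is the size of the log2 fold change over the root of F. CPM uses TMM-scaled library sizes. The functions were tested on simulated data. Sums and ratios carry no test.

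The members and lists were chosen with earlier results of these data known. Named were Exosc3, all mitochondrial members, the isoform sets, per complex the 2 nuclear members highest in TPM, the 2 with the smallest p and the largest separated rise and fall, and the 2 genes of smallest p of each list. Any other gene was named after its values were seen. 1 gene named by this rule is not reported here. Alternatives were DESeq2 1.42.0, limma-voom (limma 3.58.1), other scalings and filters, length offsets, the replicate block, each library left out and the copies merged. Same-numbered libraries correlated at 0.03, 0.05 and 0.07 in their deviations from the group means, so the numbers were not taken as pairs.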

Additional observations from a re-analysis of the deposited data

How the results depend on the processing

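Members called stayed at 0 under every alternative run except DESeq2, which called 2 (mt-Nd6 and Ndufs6). Over all genes the count was 16 (all higher) with edgeR. It was 453 with DESeq2 (235 higher and 218 lower), 39 with no filter (33 higher and 6 lower), 26 with a mean of at least 100 counts (23 higher and 3 lower) and 6 with effective length offsets. Leaving out each library in turn gave 7 to 16 calls, with 9 without Cre+ replicate 1 and 7 without Cre+ replicate 2. With the replicate number as a block the count was 56 (38 higher and 18 lower), of which 0 were members. Every library correlated best with its own number, a hint from the data and not from the design. The log2 difference of the mitochondrial sums ran from 0.12 to 0.35 over the left-out libraries, that of the nuclear sums from -0.02 to 0.10, and that of the ratio from 0.06 to 0.35, none of them more than the SD within groups away from the value with all 6 libraries. Merging the copies, chosen after the data were seen, gave 0.26 and 0.22 for the mitochondrial sums and the ratio. Of the 1172 values of the 69 tested named genes, 8 were newly called, all with DESeq2, and 29 changed sign without a call.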

Other observations

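Outside the respiratory complexes, edgeR called 0 genes of the energy pathways listed for comparison. Over all tested genes edgeR called 0.122%, and 8.23% had an unadjusted p under 0.05. Of 18 genes of the citric acid cycle, which feeds electrons to the chain, 11 had positive fold changes (median 0.10), and 1 had an unadjusted p under 0.05, Idh3a, the catalytic subunit of NAD-dependent isocitrate dehydrogenase, at means of 152 and 194 CPM (log2 fold change 0.35, SE 0.15, edgeR adjusted p = 0.558). Of 17 tested glycolysis genes 11 were negative (median -0.15). The 1 with an unadjusted p under 0.05 was Pfkp, the platelet form of phosphofructokinase, at 43.6 and 27.9 CPM (log2 fold change -0.65, SE 0.21, edgeR adjusted p = 0.402). Hk2, a hexokinase, was next, at 74.7 and 56.6 CPM (log2 fold change -0.40, SE 0.18), and the groups of both did not overlap.

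Of 12 tested regulators of nuclear respiratory genes 8 were negative (median -0.13). Myc, which drives growth and mitochondrial biogenesis, had the smallest p, at 347 and 257 CPM (log2 fold change -0.43, SE 0.10, edgeR adjusted p = 0.225, DESeq2 adjusted p = 0.000426), while Foxo3, a transcription factor of erythroid maturation, was at 188 and 220.0 CPM (log2 fold change 0.23, SE 0.10, and 0.02 with effective length offsets). Of 20 outer membrane and import genes 12 were positive (median 0.02). An unadjusted p under 0.05 was found for 1, Tomm22, an import receptor (log2 fold change -0.66, SE 0.29), beside 8.23% of all tested genes.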
